A study of Mus musculus with 12 samples.

Results

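The neuronal intermediate filament genes were taken as the rows of the deposited count table whose Ensembl identifier maps to Nefl, Nefm, Nefh, Ina or Prph. All 5 were found, among 15391 genes in the table, and all 5 passed the filter on low counts. Their RNA was counted in cultured neurons from adult mouse dorsal root ganglia, the ganglia that hold the cell bodies of sensory neurons. Every group had the genotype RPL22HA+/+;Advillin-Cre+, in which Cre under Advillin, a sensory neuron gene, switches on a ribosomal protein with an HA tag (RiboTag). All cultures came from mice preconditioned by sciatic nerve injury, a lesion made before culture that puts the neurons in a growth state. The 4 groups were the HA immunoprecipitate (IP) and the input of cultures infected with the control virus (AAV-Control, worded AAV-shControl for the input) or with AAV-shLarp1, an adeno-associated virus that carries a short hairpin RNA against Larp1. The labels give no age and do not say whether the 3 columns of a group came from separate animals or cultures. The IP carries RNA bound to tagged ribosomes of Cre-expressing cells, and the input carries RNA of all cells in the culture. The extraction text speaks of fresh ganglia, whereas the source is given as cultured neurons.

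Neurofilaments are the intermediate filaments of neurons and fill large axons, where their number sets axon calibre and so conduction speed. They are built on the light subunit encoded by Nefl, which pairs with the medium and heavy subunits encoded by Nefm and Nefh, whose long tails carry many phosphorylation sites and project from the filament. Internexin alpha (Ina) joins them mainly in central neurons, and peripherin (Prph) does so in peripheral neurons and is raised after axon injury. Larp1 binds the cap and the pyrimidine tract at the start of TOP mRNAs, which encode ribosomal proteins and translation factors.

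The pyrimidine tract is the feature that bears on a Larp1 knockdown, so the annotated starts of the members were read from RefSeq (GRCm38.p6, another build than that of the counts). Ina and Prph matched. Nefl, Nefm and Nefh are named only. Each line runs 5′ to 3′ over 40 bases before the start and 20 bases from it. Capitals mark a C followed by at least 4 letters that are each C or T, searched on the gene's strand within 10 bases of the start.
Ina, chr19:47014641-47014700, plus strand: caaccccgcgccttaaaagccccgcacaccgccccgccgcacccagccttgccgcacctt
Prph, chr15:99055134-99055193, plus strand: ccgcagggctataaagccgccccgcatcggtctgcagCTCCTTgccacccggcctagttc
Neither start opened with the run. In Prph a run of 6 letters began 3 bases before the start, and in Ina none lay within 10 bases. Among all 32851 starts in the RefSeq table, 2.505% opened with such a run and 30.72% held one within 10 bases. Of the 3 TOP mRNAs found there from a list of 5 (Rps19, Eef1a1 and Tpt1), 0 opened with it and 2 held it within 10 bases. A missing run therefore says only that these letters do not stand at the annotated start.

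Total counts were 3126591 to 3128368 per column in the control IP, 3176458 to 3177552 in the shLarp1 IP, 564095 to 564625 in the control input and 759527 to 760140 in the shLarp1 input. Within a group the totals spanned at most 0.09396% and the columns differed gene by gene by little more than random parts of their sum (median chi-square 1.459 to 1.526, against 1.369 to 1.400). The columns were therefore counted as 1 sample per group, so columns that do or do not overlap add no replicate support. Still, 6.98 to 7.62% of genes lay past the 95% point of the chi-square, against 4.17 to 5.49% in random parts. The share of all genes without overlap was not counted. No replicate error exists between conditions, no p-value is given, and every interval is a 95% interval for counting error only. The PCR-amplified reads carry no molecular identifiers, so copies of 1 molecule are counted more than once. Larp1, the target, had 147, 141 and 154 counts in the control IP and 55, 49 and 45 in the shLarp1 IP. It fell by 1.72 on the log2 scale (interval -2.00 to -1.45), while its input counts (5, 7 and 6, then 3, 3 and 2) gave -1.37 (-2.78 to -0.09), which was not called.

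The filament genes took a larger share of the IP than of the input. Together the 5 held 18636 counts in the control IP, 0.1986% of the total (exact 95% interval 0.1958 to 0.2015), and 18211 in the shLarp1 IP, 0.1911% (0.1883 to 0.1939). In the inputs they held 237 counts, 0.0140% (0.01227 to 0.0159), and 268 counts, 0.01176% (0.01039 to 0.01325). Input values of single members thus rest on 6 to 100 counts per group. Counts were not scaled to transcript length, so the members are compared between groups and not ranked against each other.

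Nefl, the core subunit, had 2272, 2322 and 2265 counts in the control IP and 2185, 2152 and 2172 in the shLarp1 IP. Its input counts were 17, 33 and 20 with the control virus and 30, 31 and 39 with shLarp1. Every control IP column was above every shLarp1 IP column, in counts and in CPM, while the input columns of the viruses overlapped. In counts per 1000000 of the group total (CPM), the order ran from control IP (731, interval 714 to 749) over shLarp1 IP (683, 667 to 699.7) to the shLarp1 input (43.9, 35.7 to 53.4) and the control input (41.4, 32.2 to 52.2), and only the inputs did not differ beyond their intervals.

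Nefm, the medium subunit, had 1369, 1342 and 1380 counts in the control IP and 1375, 1417 and 1475 in the shLarp1 IP. In the inputs it had 22, 16 and 15 counts with the control virus and 18, 25 and 18 with shLarp1. The columns of the viruses overlapped in both fractions. Its levels were 448 CPM (434 to 461) in the shLarp1 IP, 436 (423 to 449.6) in the control IP, 31.3 (23.5 to 41.0) in the control input and 26.8 (20.5 to 34.4) in the shLarp1 input. The intervals of the 2 IPs overlapped, as did those of the 2 inputs.

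Nefh, the heavy subunit, had 545, 506 and 476 counts in the control IP and 515, 398 and 462 in the shLarp1 IP. Input counts were 8, 6 and 5 with the control virus and 2, 9 and 9 with shLarp1. Its shLarp1 IP columns were the most uneven of any member in any group: their SD was 58.6 counts, against 21.4 from counting alone. Only 0.827% of the 10154 genes with at least 30 counts there had a variance as large relative to the mean. The level was 163 CPM (155 to 171) in the control IP, 144 (137 to 152) in the shLarp1 IP, 11.2 (6.76 to 17.5) in the control input and 8.78 (5.36 to 13.5) in the shLarp1 input. The IP intervals did not overlap but the IP columns did, and the inputs could not be told apart.

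Ina had 90 counts in each control IP column and 97, 84 and 86 in the shLarp1 IP, with 3, 2 and 3 and then 2, 1 and 3 in the inputs. It was at 28.8 CPM (25.4 to 32.4) and 28.0 (24.8 to 31.6) in the IPs and at 4.72 (2.04 to 9.31) and 2.63 (0.966 to 5.73) in the inputs, control virus first. The viruses overlapped in both fractions. Prph, the peripheral subunit, had 1992, 1936 and 1961 counts in the control IP and 1975, 1901 and 1917 in the shLarp1 IP. Its inputs had 31, 28 and 28 counts with the control virus and 26, 27 and 28 with shLarp1. Prph was at 628 CPM (612 to 644) in the control IP, 608 (592 to 624) in the shLarp1 IP, 51.4 (41.2 to 63.4) in the control input and 35.5 (28.2 to 44.2) in the shLarp1 input. In CPM its input columns did not overlap between the viruses, although the counting intervals did.

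**Figure D1:**
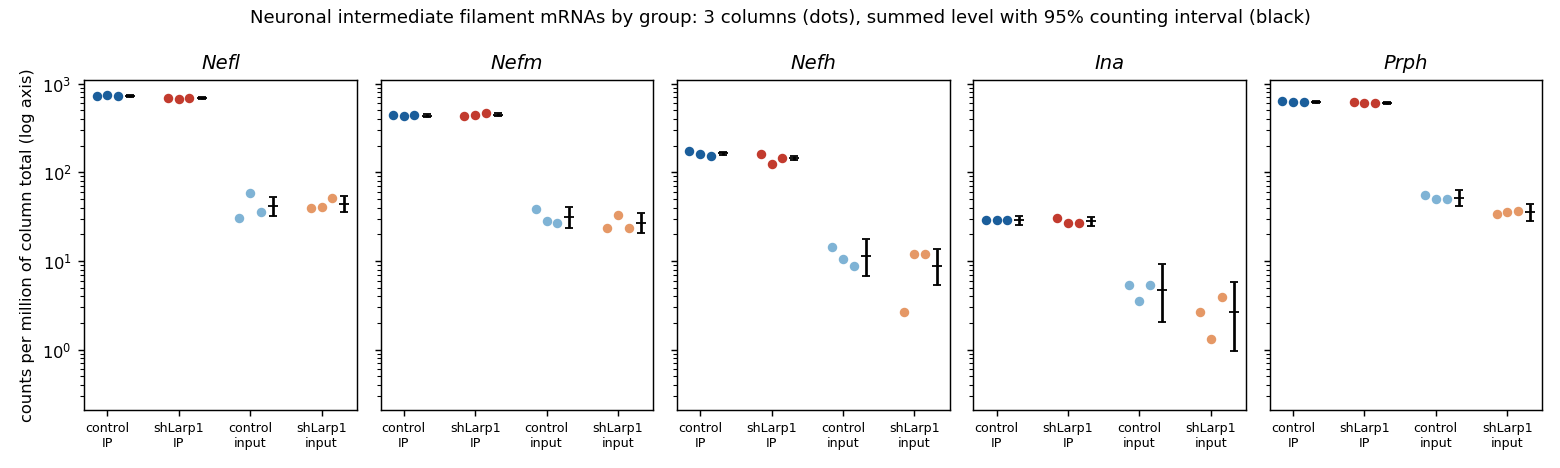
CPM of the column total (log axis) for the 5 genes in the 3 columns of each group (dots), with the level of the summed counts and its 95% counting interval (black). In every panel the IP dots lie above the input dots, and the IP dots of the 2 viruses lie close together.

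The first comparison asked how much of each filament mRNA the ribosome IP held relative to the input. It sets ribosome-bound RNA of the tagged cells against RNA of the whole culture. Differences between cell types and differences in ribosome binding cannot be told apart in this ratio. Ratios were scaled by trimmed mean of M values (TMM) factors, and a gene was called where its whole interval lay beyond 1.5-fold. With the control virus all 5 members were higher in the IP, beside 12.8% of the 7588 genes with input counts (14.4% were lower and 27.2% changed either way). That background moved with the scaling: 970 genes were higher and 1095 lower with TMM, against 1149 and 1021 with DESeq2 factors, 3376 and 651 with total counts, 394 and 1590 with upper-quartile factors and 85 and 2399 with pan-neuronal counts. Nefl was 9.05-fold higher (log2 3.18, interval 2.84 to 3.54), Nefm 7.13-fold (2.83, 2.44 to 3.25), Nefh 7.43-fold (2.89, 2.25 to 3.63), Prph 6.26-fold (2.65, 2.34 to 2.97) and Ina 3.12-fold (1.64, 0.64 to 2.87). The median of the members was 2.83, against 0.41 for all genes. Of all genes, 4.22% had a ratio at or above that of Nefl and 19.9% at or above that of Ina.

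With shLarp1 all 5 members were again higher in the IP, beside 16.8% of genes (15.1% were lower and 31.9% changed either way). Here 1275 genes were higher and 1147 lower with TMM, 5017 and 748 with total counts, 497 and 1489 with upper-quartile factors and 10 and 3086 with pan-neuronal counts. Prph was 6.82-fold higher (2.77, 2.45 to 3.10), Nefm 6.67-fold (2.74, 2.37 to 3.13), Nefh 6.55-fold (2.71, 2.08 to 3.43), Nefl 6.21-fold (2.63, 2.35 to 2.93) and Ina 4.24-fold (2.09, 0.94 to 3.54). Here the median of the members was 2.71, against 0.68 for all genes. The 2 ratios of a member share no group, but the size of either depends on the scaling. With the summed pan-neuronal counts as the library size, Ina was not called with the control virus (0.54), and no member was called with shLarp1, where the 5 values ran from 0.16 to 0.85. Ina, with 8 and 6 input counts, also lost its call with upper-quartile factors (1.16 and 1.58). It lost it with the control virus without any one control input column (1.52 to 1.79) and with shLarp1 without shLarp1 input replicate 2 (1.68).

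Pan-neuronal markers give the yardstick for that ratio. Of the 20 on the list, 15 were higher in the control IP than in the input, with a median of 1.86, or 1.79 with Syt1, a synaptic vesicle protein with 0 control input counts, at its lower bound. Nefl, Nefm and Nefh each had a larger ratio than 19 of the 20 in the control comparison, the exception being Syt1. Prph was above 18 of them, Syn1 (2.66) and Syt1 excepted, and Ina above 8. With shLarp1, Nefl, Nefm, Nefh and Prph each exceeded 17 of the 20, and Ina 11. Summed levels of the 20 genes were 9688 to 9825 CPM per column in the control IP, 11510 to 11610 in the shLarp1 IP, 2274 to 2373 in the control input and 1213 to 1224 in the shLarp1 input. These sums differed between the viruses in both fractions, with the larger difference in the input, and their part in the values of the filament genes was not tested. The sums, and so the pan-neuronal scaling, are weighted to genes with many counts, such as Uchl1 (1772 in the control input, 935 in the shLarp1 input). Gene by gene, the median TMM-scaled input change of the 20 was -0.22, against -0.14 for all genes. Of the 20, 7 were above 0 and 1 was called lower, Uchl1 at -1.12. In such bulk RNA, fewer neurons and less RNA per neuron cannot be told apart.

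**Figure D2:**
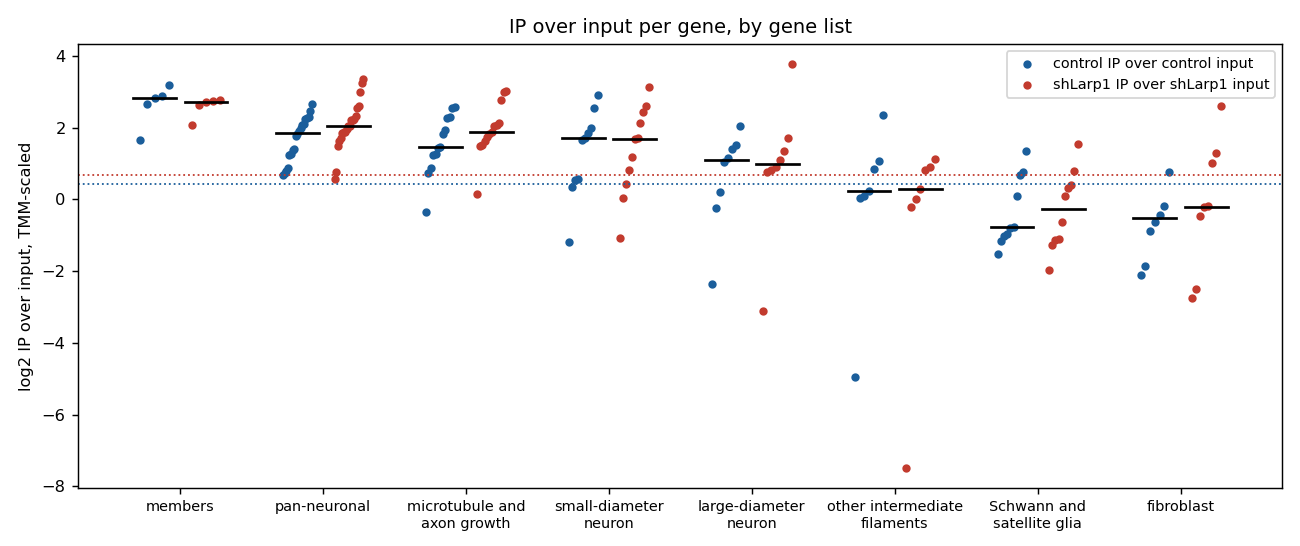
Log2 ratio of IP over input per gene (dots) for the 5 filament genes (members) and 7 other gene lists, with the control virus (blue) and with shLarp1 (red). Black bars are list medians, dotted lines the medians of all genes, and genes without input counts are not drawn; 4 of the 5 filament genes lie near the top of the neuronal ranges, and the glial and fibroblast medians lie below those of all genes.

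Other cell types in these cultures were read from their own markers. Of 10 Schwann cell and satellite glia markers that passed the filter, 1 was higher in the control IP (S100b, a calcium-binding protein, 1.34) and 1 lower (Fabp7, a satellite glia lipid carrier, -1.52), with a median of -0.78. Fibroblast markers had 0 of 8 higher and 3 lower (Fn1 -1.87, Mgp -0.89, Sparc -2.10), with a median of -0.53, and macrophage markers 0 of 5 higher and 2 lower (Lyz2 -1.01, C1qb -1.65). In the IP, the summed level of 11 glial markers was 737 to 742 CPM with the control virus and 753 to 756 with shLarp1, and none was at 0. The input held 392 to 434 and 348 to 389. In these CPM, which use no TMM factors, the glial sum was higher in the IP, whereas the TMM-scaled median was below 0. Total counts as the library size add 0.98 to every gene's control IP over input ratio. RNA of nonneuronal markers was thus present in every group. Within sensory neurons, the small-diameter markers had 5 of 11 higher (median 1.71, or 1.65 with Plxnc1 at its lower bound), among them P2rx3, an ATP-gated channel, at 2.90. Large-diameter markers, of the cells richest in neurofilaments, had 1 of 8 higher and 1 lower (Ntrk3, the neurotrophin-3 receptor, -2.37), with a median of 1.10. Parvalbumin (Pvalb), the classical marker of proprioceptors, had 1.16 (0.52 to 1.89) and was not called. Calb1, Kcna1 and Runx3 had no count in the control input, and Kcna1, Kcnc1, Scn1a, Etv1 and Fam19a1 none in the shLarp1 input.

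Genes for proteins that move, tie or process neurofilaments were counted on lists from textbook knowledge, of which those on turnover, mRNA binding and axon growth share genes with the pan-neuronal list (Uchl1, Tubb3 and Stmn2 among them). Among 12 crosslinkers and motors, 7 were higher in the control IP and 0 lower, with a median of 1.60 (1.53 with Macf1 at its lower bound). They included the kinesin heavy chains Kif5c (3.00, 2.11 to 4.06), Kif5a (1.65) and Kif5b (1.54), which carry neurofilaments along the axon, and Dst (1.72), a cytoskeletal linker. Of 18 kinases and phosphatases that passed the filter 5 were higher and 0 lower, with a median of 1.37. They included Gsk3b (1.82) and Mapk3 (1.17), which phosphorylate the tails, and the phosphatase subunits Ppp2ca (2.62) and Ppp2r2b (2.07). Of 13 turnover and chaperone genes 7 were higher and 1 lower, with a median of 1.67. The chaperones Hsp90aa1 (3.26) and Hspa8 (2.13) and the ubiquitin ligase Trim2 (2.73), which binds the light subunit, were higher, and the small heat shock protein Cryab was lower (-1.95). Among the genes of microtubules and axon growth 12 of 13 were higher, with a median of 1.47, from Tubb3 (2.27) and the injury gene Sprr1a (2.58) to Stmn3 (0.73). Other intermediate filaments that passed the filter had 2 of 7 higher (Vim 0.84, the filament of fibroblasts and glia, and Lmna 1.07, a nuclear lamin) and 1 lower (Lmnb2 -4.97), with a median of 0.25.

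The second comparison set shLarp1 against the control virus in the IP. None of the 5 members was called, beside 5.12% of the 8766 genes with counts in at least 1 of the IPs (0.719% higher and 4.4% lower). Nefh had -0.30 (-0.41 to -0.20), Nefl -0.23 (-0.28 to -0.18), Prph -0.18 (-0.23 to -0.12), Ina -0.17 (-0.42 to 0.08) and Nefm -0.09 (-0.15 to -0.03). All 5 values were below 0 under TMM, DESeq2 and pan-neuronal scaling, but Nefm was at 0.04 with upper-quartile factors and with total counts, which add 0.13 to every gene. Without any one input column, which changes the genes that pass the filter and so the factors, Nefl was at about -0.14, Prph at -0.09 and Nefm at -0.01, where its interval included 0. All-gene calls were 63 higher and 386 lower with TMM, 104 and 207 with upper-quartile factors and 105 and 204 with total counts. The median of the members was -0.18, against -0.08 for all genes, and 64.2% of genes had a value at or above that of Nefl. Only for Nefl did the columns of the viruses not overlap in CPM, which adds no replicate support and has no all-gene share beside it. Each member lay below most of the 20 pan-neuronal genes, whose median was 0.08: 18 were above Nefl, 16 above Nefm, 19 above Nefh, 17 above Ina and 17 above Prph. With intervals this narrow, a 1.5-fold change of any member in the IP lies outside its counting interval, whereas the error between cultures is unknown. The Nefh interval also does not cover the spread of that gene's uneven shLarp1 IP columns.

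In the inputs, too, 0 of the 5 members were called between the viruses, beside 1.19% of 7588 genes (0.171% higher and 1.01% lower). Nefl had 0.32 (-0.14 to 0.78), Nefm 0.01 (-0.55 to 0.56), Nefh -0.12 (-1.10 to 0.86), Prph -0.30 (-0.76 to 0.15) and Ina -0.61 (-2.42 to 1.10). With TMM factors every interval included 0, and those of Nefh and Ina reached beyond 1.5-fold in both directions, so a change of that size was not detectable at this depth. The Nefl interval reached beyond 1.5-fold upward and the Prph interval downward, and that of Nefm ended just inside it. The median of all genes was -0.14. Scaling moved every value here by -0.23 (total counts) to 0.70 (pan-neuronal counts), and with the latter all 5 members were above 0. The Nefl interval lay above 0 with DESeq2 factors (0.53, 0.07 to 0.99), upper-quartile factors (0.46, 0.01 to 0.92) and pan-neuronal counts (1.01, 0.56 to 1.48). It also did so without control input replicate 2 (0.87, 0.31 to 1.45) and without shLarp1 input replicate 1 (0.61, 0.11 to 1.11) or 2 (0.59, 0.09 to 1.09). Prph lay below 0 with total counts (-0.53, -0.99 to -0.08). Over all genes the calls were 13 higher and 77 lower with TMM, 181 and 35 with DESeq2, 117 and 43 with upper-quartile factors, 7 and 204 with total counts and 867 and 4 with pan-neuronal counts.

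Whether the virus difference was alike in IP and input is measured by the interaction, the IP log2 ratio minus the input log2 ratio. It called 0 of 5 members, beside 6.96% of genes (1.38% higher and 5.57% lower). Nefl had -0.54 (-0.98 to -0.10), an interval that does not include 0, and 26.7% of genes had a lower value. With total counts, however, the Nefl value was -0.18 (-0.62 to 0.26). Without control input replicate 2, which holds 33 of its 70 control input counts, it was -1.0 (-1.54 to -0.46). Its IP over input ratio was 9.05-fold with the control virus and 6.21-fold with shLarp1. Nefm had -0.10 (-0.63 to 0.44), Nefh -0.18 (-1.08 to 0.72), Prph 0.12 (-0.31 to 0.56) and Ina 0.42 (-1.08 to 1.91). Only with pan-neuronal scaling was a member called, Nefl at -1.36. That scaling adds -0.82 to every gene, and the others then ran from -0.99 to -0.40. Over all genes the split was 105 higher and 423 lower with TMM, 47 and 553 with DESeq2 factors, 401 and 138 with total counts and 7 and 1256 with pan-neuronal counts.

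**Figure D3:**
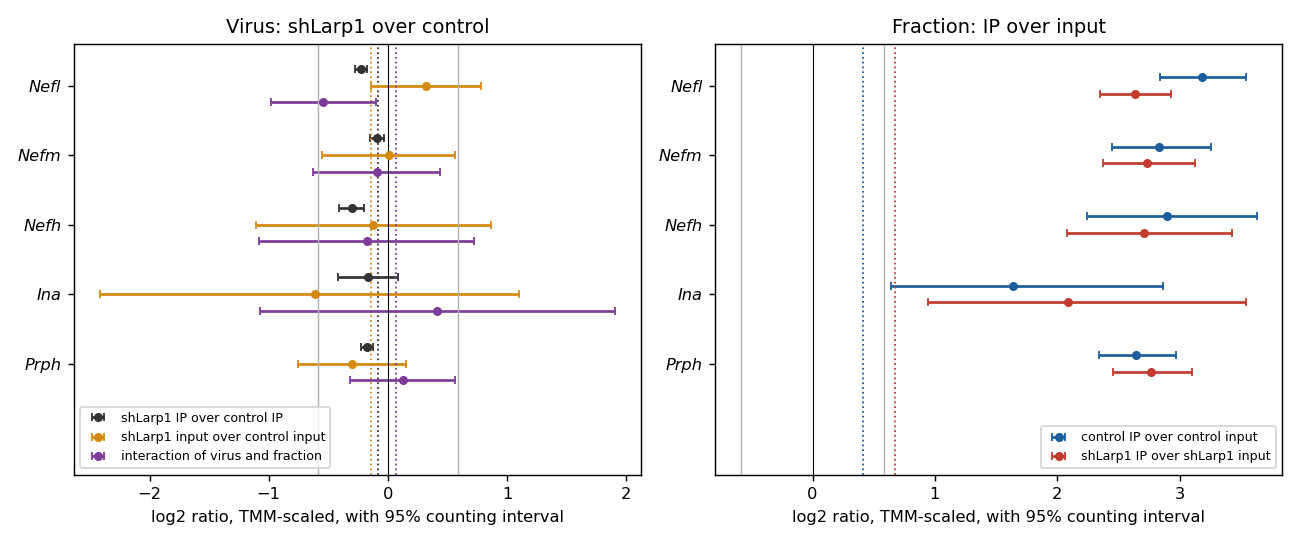
Log2 ratios (dots) with 95% counting intervals (bars) for the virus comparisons and their interaction (left) and for IP over input (right). Grey lines mark 1.5-fold and dotted lines the medians of all genes in the same colours; on the left every interval reaches inside the grey lines, and on the right every interval lies above the upper one.

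Ratios between subunits are free of any scaling between groups. Of 20 such comparisons (4 subunits, each to Nefl, in 5 contrasts), 4 had an interval that did not include 0. The 20 are not independent, since all share Nefl and the interaction is made of other contrasts. No share over other gene pairs was counted. In the control IP there were 0.596 Nefm counts per Nefl count, and in the shLarp1 IP 0.656. By column the values were 0.603, 0.578 and 0.609 and then 0.629, 0.659 and 0.679, without overlap, and the log2 change was 0.14 (0.06 to 0.22). The columns of a group count as 1 sample, so overlap of these ratios, here and below, is description only. Nefh per Nefl went from 0.223 to 0.211 (-0.08, -0.19 to 0.04), with overlapping columns. Prph per Nefl went from 0.859 to 0.890 (0.05, -0.02 to 0.12), and its columns did not overlap (0.877, 0.834 and 0.866, then 0.904, 0.883 and 0.883). Ina per Nefl went from 0.0394 to 0.0410 (0.06, -0.19 to 0.31), with overlapping columns. The medium subunit was thus the only one whose ratio to the light subunit differed between the IPs beyond counting error. Without shLarp1 IP replicate 1, the highest of the uneven Nefh columns there, the Nefh ratio was at -0.16 (-0.29 to -0.03).

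Between fractions, peripherin and internexin differed from the light subunit with the control virus. Prph had 1.24 counts per Nefl count in the control input and 0.859 in the control IP (-0.53, -0.99 to -0.08), and Ina had 0.114 and 0.0394 (-1.61, -2.65 to -0.57). With shLarp1 the same changes were 0.13 (-0.29 to 0.56) for Prph and -0.65 (-1.81 to 0.50) for Ina. The interaction of the Prph ratio was 0.67 (0.04 to 1.29). Nefl is the denominator of all these ratios, and its 17, 33 and 20 control input counts enter each of them. The Prph interval between the control fractions included 0 without control input replicate 1 (-0.30) or replicate 3 (-0.46), and that of the interaction without either of these (0.43 and 0.59) or shLarp1 input replicate 3 (0.56). Without control input replicate 2, which holds the 33 Nefl counts, the interval of the Nefm ratio too did not include 0 between the control fractions (-0.75, -1.40 to -0.09) and in the interaction (0.84, 0.04 to 1.65).

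**Figure D4:**
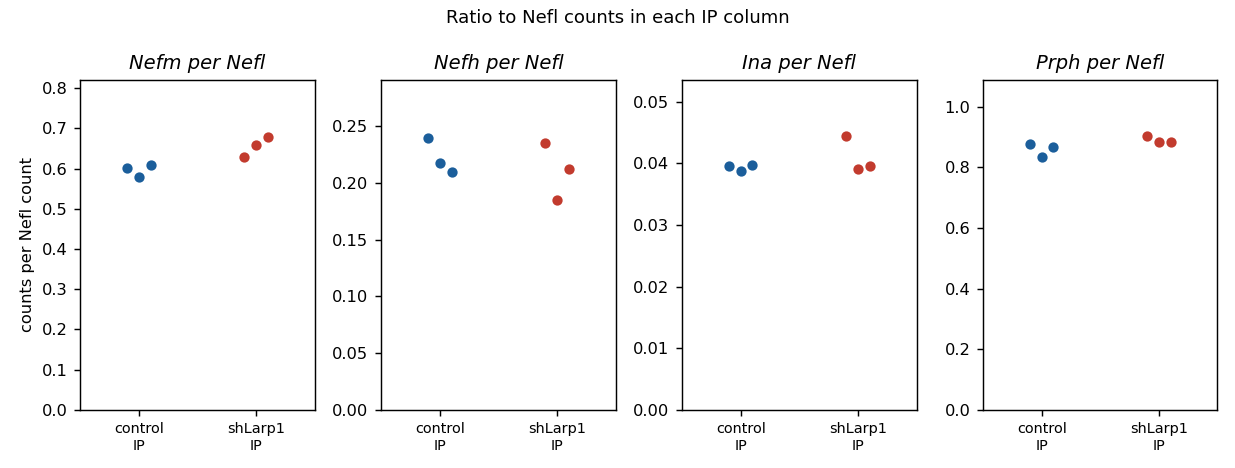
Counts of Nefm, Nefh, Ina and Prph per Nefl count (linear axes from 0) in each column of the control IP (blue) and the shLarp1 IP (red). The Nefm dots do not overlap between the viruses (0.578 to 0.609 against 0.629 to 0.679), and the Nefh dots do. The dots of a group count as 1 sample.

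Related gene groups had 0 or 1 genes called each between the viruses in the IP, beside 5.12% of all genes (0.719% higher and 4.4% lower). Crosslinkers and motors had 0 of 12 called (median 0.06), turnover and chaperone genes 0 of 13 (0.02), microtubule and axon growth genes 0 of 13 (0.00), pan-neuronal genes 0 of 20 (0.08) and other intermediate filaments 0 of 7 (-0.21). Among 18 kinases and phosphatases only Mapk8, the stress kinase JNK1, was called, lower at -1.23 (-1.62 to -0.86), with a list median of -0.07. The list of proteins that bind neurofilament mRNAs had 10 genes that passed the filter, with Larp1 counted on it. Only Larp1 was called, which as the knockdown target says nothing about such proteins. None of the others was called, Tardbp (0.13) and Elavl4 (0.29) among them. Large-diameter markers had 0 of 8 called (median -0.22), with Pvalb at -0.24 (-0.42 to -0.05), and small-diameter markers 1 of 11 (Plxnc1, the semaphorin receptor plexin C1, -1.25), with a median of 0.04. Glial markers had 0 of 10 called (-0.08). Of the 5 TOP mRNAs 1 was called, Pabpc1, the cytoplasmic poly(A)-binding protein, lower at -1.22 (-1.38 to -1.05), and their median was -0.37. Rplp1 at -0.46 (-0.48 to -0.44), Rps19 at -0.37 (-0.39 to -0.35) and Eef1a1 at -0.10 (-0.15 to -0.06) had intervals below 0 without a call. The interval of Tpt1 at -0.01 (-0.06 to 0.05) included 0.

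Genes with the pattern most like that of a member were ranked by the distance between log2 CPM profiles over the 4 groups, each centred on its mean, among the 1077 genes with at least 100 counts in every group. No member reached 100 counts in the control input, so the members were not candidates for each other. The ranking therefore does not say whether a member lay closer to these genes than to another member. For Nefl, Nefm, Nefh and Prph the nearest were Tubb3, the neuronal beta tubulin, at distances of 0.85, 0.60, 0.53 and 0.38, then Hspa8 (0.92, 0.81, 0.86 and 0.83) and Hspb1, a small heat shock protein (1.18, 0.99, 0.99 and 0.90). Of the genes ranked, 2 had a log2 control IP over input ratio of at least 2, so few candidates had a steep profile. Ina lay much closer to its neighbours, Serpinb1a (0.050), Tubb2b (0.096) and Tubb5 (0.17), although its own profile rests on 8 and 6 input counts.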

How the data were processed

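RNA of 4 groups (control and shLarp1 virus, IP and input; 12 columns) was sequenced with a nanopore cDNA-PCR barcoding kit, per the labels' protocols. The deposited values are unscaled whole-number estimated counts, 1 row per gene. Per the submitters' processing notes, minimap2 and Salmon were used with GRCm39 (mm39). The authors' tool versions, annotation, strand setting and filters were not stated in those sources, so reads of overlapping or antisense genes cannot be told apart. Identifiers were matched to symbols with a table of gene names (13711 of 15391 genes).

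Counts were summed over the 3 columns of a group and scaled with edgeR 4.0.16 (R 4.3.3), whose TMM factors were computed on the columns after filterByExpr (minimum count 10, 8773 genes). Of these, 1185 had no input count. Log2 ratios carry exact (Clopper-Pearson) 95% intervals. Interactions and subunit ratios use counts plus 0.5, with intervals by normal approximation. CPM levels and shares carry exact intervals and use group totals without factors. A value against a group at 0 used 3 counts over the group as its lower bound. The scripts were tested on simulated data.

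The members, lists, rules and tests were chosen with earlier results of these data known. Named are all 5 members, Larp1, for each member the 3 nearest genes, and of each list the genes called and up to 4 others with the most IP counts. Tardbp and the markers at 0 were named after their values were seen. Some genes that this rule names are not reported here. Alternatives were other scalings (DESeq2 1.42.0 size factors among them), no filter, other fold limits, each column left out, and edgeR's quasi-likelihood test on columns.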

Additional observations from a re-analysis of the deposited data

How the results depend on the processing

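Between the viruses in the IP, 0 members were called under each of 4 other scalings, without the filter, at a looser and a stricter fold limit, and without any one column. edgeR's quasi-likelihood test, which counts the columns as 3 samples, called 4 members (all but Ina), beside 2434 of all 8773 genes. With a replicate block it called 4 members, beside 2311 genes. The replicate numbers do not pair the columns (r -0.0553 to 0.0365 for the same number, -0.0467 to 0.043 for different ones), and the block changed no other count of members. Without one column the IP values ran from -0.38 to -0.20 for Nefh, -0.23 to -0.14 for Nefl, -0.18 to -0.09 for Prph, -0.22 to -0.08 for Ina and -0.11 to -0.01 for Nefm. The interaction of Nefl ran from -1.0 to -0.49. In the input 0 members were called in every alternative. With pan-neuronal scaling 1 member was called in the interaction and 0 in shLarp1 IP over input. That scaling adds -0.82 to every gene in the interaction and -1.92 in shLarp1 IP over input. Why the pan-neuronal sums differ between groups was not tested. All-gene calls depended more on the settings: 449 in the IP became 210 to 558 without one column, 681 with pan-neuronal scaling, 1066 without the filter and 2434 in the quasi-likelihood test. Input calls went from 90 to 216 (DESeq2), 160 (upper quartile), 211 (total counts), 871 (pan-neuronal) and 73 to 218 without one column. Total counts gave 4027 and 5765 calls in IP over input. The pyrimidine run was found in 1 of 2 members within 10 bases of the start and in 0 at it. Depth limits the inputs, where Ina had 8 and 6 counts.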
